A study of Homo sapiens with 14 samples.

Results

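Open chromatin was examined at the gene of the epidermal growth factor receptor, EGFR, and at the neighbouring genes of 4 of its ligands: epigen (EPGN), epiregulin (EREG), amphiregulin (AREG) and betacellulin (BTC). The members are all consensus regions that start between 54.98 and 55.23 Mb of chromosome 7 (the EGFR interval, 20 regions) or between 74.28 and 74.86 Mb of chromosome 4 (the ligand interval, 38 regions), in hg38. They make 58 of the 65774 regions of the deposited table, and are numbered here from low to high coordinate within each interval. The assay was ATAC-seq, in which a transposase cuts accessible DNA and inserts sequencing adapters. All libraries came from SUM149PT, an established inflammatory breast cancer line without oestrogen and progesterone receptors per the labels. There were 7 groups of 2 libraries: the clones M2, M1, EM3, EM2, EM1 and E, and Parental, the line they came from. No group was treated. What the clone letters stand for is not in the labels, the study's title names the epithelial-mesenchymal transition, and each group is 1 clone or the parental line, so a difference between groups is a difference between those cell populations.

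EGFR is a receptor tyrosine kinase on the cell surface that pairs with itself or with ERBB2, ERBB3 or ERBB4 when a ligand binds, and it signals through RAS and ERK among other routes. Its ligands are made as membrane-bound precursors that proteases shed. EREG, AREG and BTC bind EGFR on the same or nearby cells, and EPGN is a low-affinity ligand of EGFR. Some of these ligands, BTC among them, also bind ERBB4. In breast epithelium AREG is a growth factor of the mammary ducts, and EGFR is often abundant in breast cancers without hormone receptors.

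Depth ran between 8138944 counts in E replicate 1 and 16786823 in EM3 replicate 1. Values are counts on the CPM scale after TMM scaling, written as replicate 1 and replicate 2 of each group. Since nothing in the labels says that replicate libraries are separate cultures, the p-values cover the spread of these libraries alone, and intervals and floors cover counting error only. E replicate 1 stood apart from E replicate 2. Over all tested regions it correlated at 0.542 and 0.543 with the M2 libraries, while E replicate 2 correlated at 0.35 and 0.364, and the E libraries correlated at 0.873 with each other against 0.948 to 0.97 in the other groups. E results are therefore also given without it. Regions at the gene ends of the 8 epithelial markers summed to 48.8 to 49.5 CPM in M2, 45.7 to 50.1 in M1 and 208 to 298 in the other groups, and those of 4 of 6 mesenchymal markers to 141 to 156, 133 to 135 and 58.4 to 129. The epithelial list went both ways: the 1 region shared by KRT8 and KRT18 averaged 39.9 CPM in M2, against 27.3 in Parental (log2 change 0.55, adjusted p = 0.032), while the other 6 regions were lower in M2, at -3.28 to -9.58. Of the mesenchymal regions, those of VIM and FN1 were higher in M2 (1.63 and 1.32, adjusted p = 0.0002 and 0.0016). Those of ZEB1 and TWIST1 were not called in M2 (0.12 and 0.25, adjusted p = 0.55 and 0.34). Of the markers of other cell types, none of 5 endothelial genes and 1 of 3 adipocyte genes had such a region. Of the leukocyte genes, PTPRC and ITGAM had none, and CD3E and CD14 had 1 each, averaging 18 and 18.6 CPM in M2, against 47.6 and 33.9 in Parental (log2 changes -1.41 and -0.88, both adjusted p = 0.0011). The part of these differences in the results on the M clones was not tested.

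The RefSeq promoter windows (GRCh38.p14, 250 bases before to 50 after a gene start) of the starts whose accessibility differed among the groups are shown 5′ to 3′ on the gene's strand, since the results on EGFR, EPGN and EREG turn on them. Capitals mark matches on either strand to the motifs searched: AP-1 (TGANTCA), TEAD (GGAATG), RUNX (TGTGGT), GRHL (AACCGGT), the E-box read by ZEB factors (CACCTG) and SP1 (GGGCGG).
EGFR, first start, chr7:55018767-55019066, plus strand: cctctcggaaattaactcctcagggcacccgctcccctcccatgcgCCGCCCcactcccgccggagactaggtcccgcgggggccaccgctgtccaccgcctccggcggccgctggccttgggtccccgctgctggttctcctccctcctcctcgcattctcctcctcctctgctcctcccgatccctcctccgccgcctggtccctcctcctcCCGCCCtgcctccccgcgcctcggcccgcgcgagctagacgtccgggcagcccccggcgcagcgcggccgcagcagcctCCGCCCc
EGFR, second start, chr7:55109589-55109888, plus strand: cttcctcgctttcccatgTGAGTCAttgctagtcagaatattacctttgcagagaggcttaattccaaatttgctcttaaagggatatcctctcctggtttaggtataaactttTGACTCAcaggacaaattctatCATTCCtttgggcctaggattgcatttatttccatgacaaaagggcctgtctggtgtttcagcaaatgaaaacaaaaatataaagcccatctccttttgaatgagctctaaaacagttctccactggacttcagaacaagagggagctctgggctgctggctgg
EPGN, chr4:74308220-74308519, plus strand: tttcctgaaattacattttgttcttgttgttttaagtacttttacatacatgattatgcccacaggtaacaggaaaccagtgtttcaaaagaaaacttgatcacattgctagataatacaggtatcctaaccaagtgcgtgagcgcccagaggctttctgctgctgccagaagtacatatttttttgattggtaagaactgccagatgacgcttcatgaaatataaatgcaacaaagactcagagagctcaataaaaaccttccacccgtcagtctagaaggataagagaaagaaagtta
EREG, chr4:74364895-74365194, plus strand: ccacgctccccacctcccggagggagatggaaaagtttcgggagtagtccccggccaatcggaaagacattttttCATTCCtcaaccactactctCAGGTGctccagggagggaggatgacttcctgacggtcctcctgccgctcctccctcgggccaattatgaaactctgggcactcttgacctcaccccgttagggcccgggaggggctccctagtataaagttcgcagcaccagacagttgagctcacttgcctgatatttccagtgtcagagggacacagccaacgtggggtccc
The first EGFR start has 75.3% G and C and 3 SP1 matches, a motif found in 45% of 35116 RefSeq promoter windows. The second EGFR start has 42.0% G and C, with 2 AP-1 matches, 232 and 136 bases before the start, and 1 TEAD match. These motifs occur in 7.71% and 14% of windows. Of this window 131 of 300 bases lie in an accessible region, and both AP-1 matches fall in that part while the TEAD match does not. The EREG window has 1 TEAD and 1 E-box match, and the E-box motif is found in 20.6% of windows, and the EPGN window has none of the 6 motifs. No matches overlap, and a match is a description of the letters, not a bound site.

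Each region was compared across the 7 groups with an edgeR quasi-likelihood test over all 65771 regions that passed the filter, which all 58 members did. Log2 changes are given ± a standard error with the p adjusted over all regions by the Benjamini-Hochberg method. This error was derived from the test, as the size of the change divided by the square root of its F. Where counts are few it can be smaller than the counting error. At an adjusted p under 0.05, 18 of 20 regions of the EGFR interval and 26 of 38 of the ligand interval differed among the groups, beside 78.6% of all regions. The group means of a region spanned a median of 1.52 on the log2 scale in the EGFR interval (0.41 to 4.57) and 1.57 in the ligand interval (0.26 to 6.57), beside 1.76 over all regions. The median range of the members was thus near that of the whole table. The map of all regions and libraries shows that M2 and M1 differ from the other groups in both directions within each interval.

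**Figure D1:**
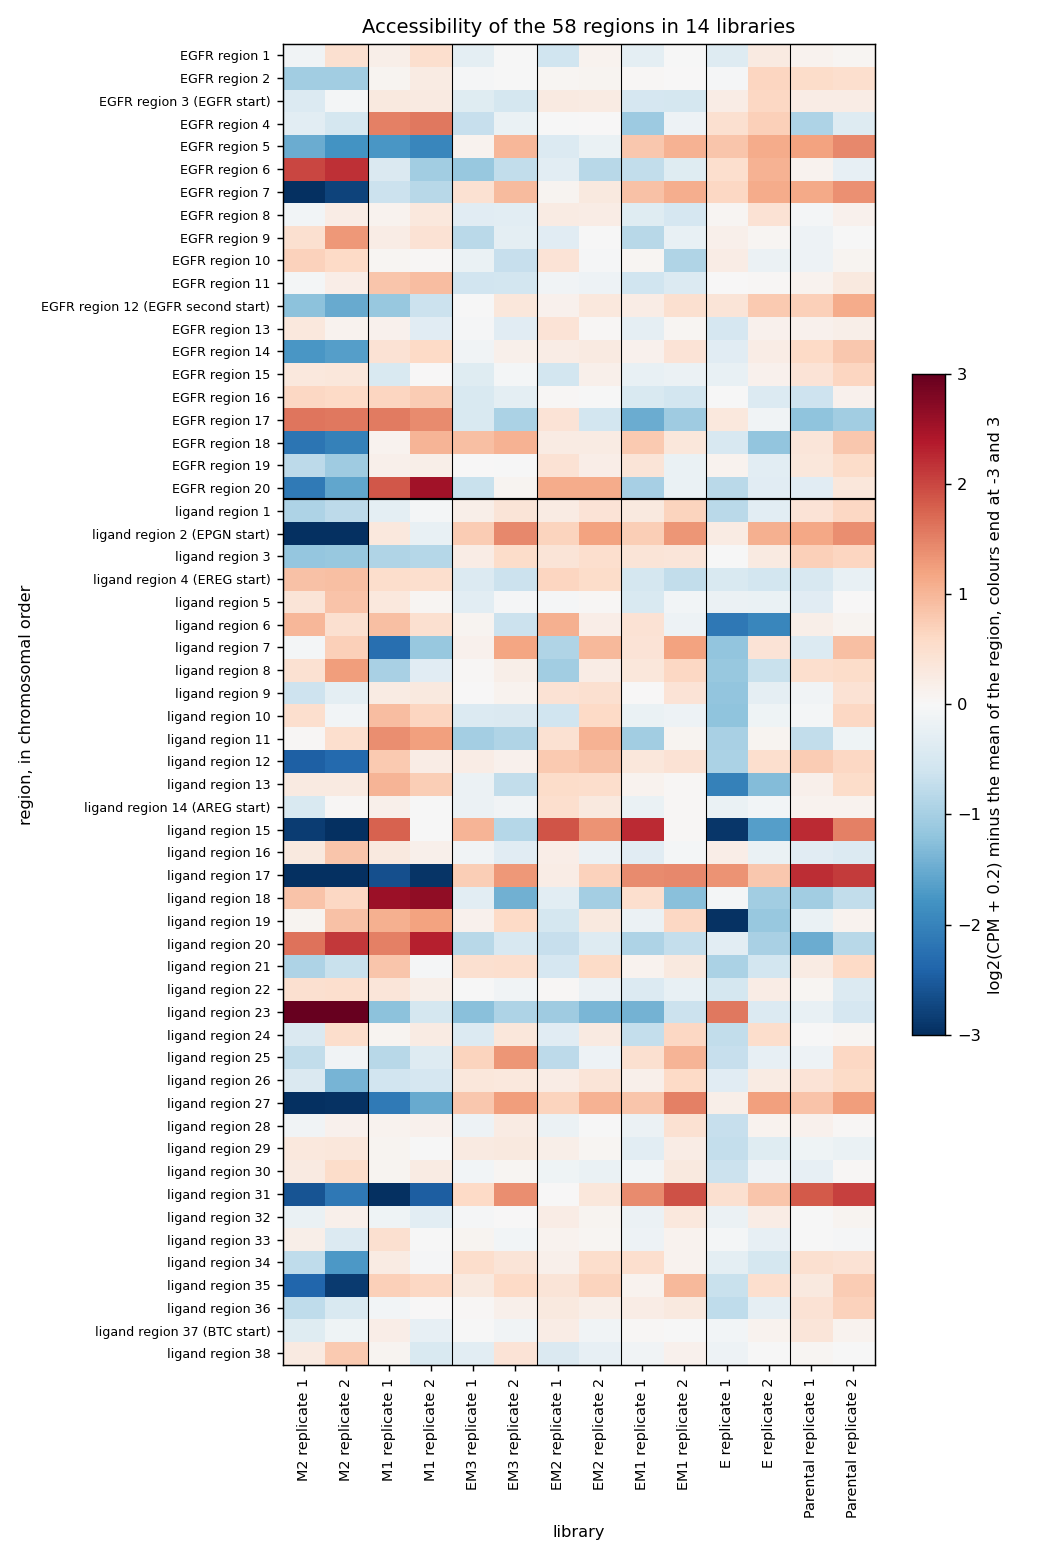
Accessibility of the 20 EGFR and 38 ligand regions (rows, in chromosomal order) in 14 libraries (columns, grouped by clone with Parental last). Colours give log2(CPM + 0.2) minus the region's mean over libraries, and colours end at -3 and 3. Blue cells in the M2 and M1 columns mark regions such as EGFR region 7 and ligand regions 17, 27 and 31, and red cells mark EGFR region 17 and ligand region 20.

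At the start of EGFR (EGFR region 3, chromosome 7, 55018667 to 55019714, also overlapped by LOC105375284) accessibility was moderate in every group. It was 26.2 and 33.6 CPM in M2, 43.2 and 42.7 in M1, 27.4 and 24.2 in EM3, 42.5 and 41.9 in EM2, 24.9 and 24.4 in EM1, 41.1 and 54.1 in E, against 40.9 and 40.9 in Parental. The libraries of M2, EM3 and EM1 lay below both Parental libraries, and those of M1, EM2 and E lay above them. The log2 change from Parental was -0.45 ± 0.16 (adjusted p = 0.028) in M2 and -0.66 ± 0.16 (adjusted p = 0.048) in EM3, while that of EM1, at -0.73 ± 0.17 (adjusted p = 0.071), did not pass the threshold. The changes of M1, EM2 and E were 0.07, 0.05 and 0.22. A lower level in a bulk library can be fewer cells with the region open or less open chromatin in each cell, which cannot be told apart. With the median of the surrounding 10 Mb window removed, M2 came to -0.32 (adjusted p = 0.19) and EM3 to -0.51 (adjusted p = 0.22). M2 did not pass without M2 replicate 1 (-0.28, adjusted p = 0.2) or without either Parental library, and EM3 did not pass without any one of its own or the Parental libraries, without either EM2 library, without EM1 replicate 1 or with library totals (-0.61, adjusted p = 0.056).

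A second start is listed by RefSeq inside the gene, next to EGFR region 12 (chromosome 7, 55109323 to 55109719), which carries the 2 AP-1 matches printed above. Accessibility there was 7.33 and 5.96 CPM in M2, 7.87 and 11.1 in M1, 17.2 and 22.2 in EM3, 19.2 and 21.8 in EM2, 20.5 and 24.3 in EM1, 23 and 30.3 in E, against 28.8 and 37.8 in Parental. All M2 and M1 libraries lay below every other library, the EM and E libraries came between, and Parental was highest apart from an overlap with E. Both M clones were lower than Parental, with log2 changes of -2.33 ± 0.25 (adjusted p = 4.6e-06) in M2 and -1.80 ± 0.24 (adjusted p = 6e-05) in M1. Both calls held in every alternative run for them. The changes of EM3, EM2, EM1 and E were -0.76, -0.70, -0.57 and -0.32, none past the threshold. M1 was also lower than E, at -1.48 ± 0.25 (adjusted p = 0.00033), a comparison that does not use the Parental libraries.

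**Figure D2:**
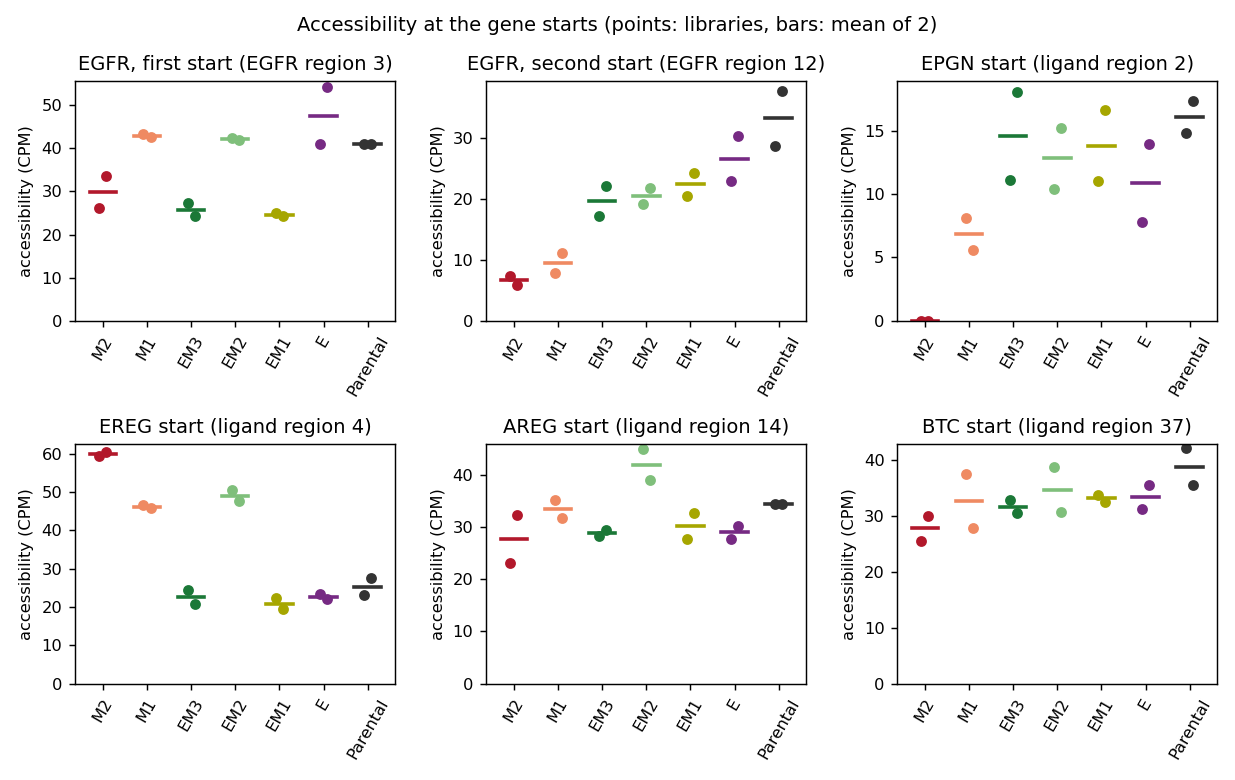
Accessibility (CPM) at the starts of EGFR, EPGN, EREG, AREG and BTC in each library (points) with the mean of 2 libraries (bars), groups from M2 to Parental. The second EGFR start is lowest in M2 and M1, the EPGN start has no counts in M2, and the EREG start is highest in M2, M1 and EM2.

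Within EGFR, regions of opposite direction lay side by side. Of the 20 regions, 17 lie inside the gene, 1 overlaps its start and 2 lie before it. In M2, 14 differed from Parental, beside 67% of all regions, of which 5 were higher and 9 lower, beside 32.2% and 34.9%. In M1, 9 differed, beside 42.4% of all regions, with 5 higher and 4 lower, beside 19% and 23.4%. The median change of the interval was -0.17 in M2 and 0.06 in M1. The counts were not tested against those of the whole table and nothing particular to the gene is read from them.

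EGFR regions 5 and 7, 15.5 and 34.9 kb past the start, fell in both M clones. Region 7 (chromosome 7, 55053627 to 55054252) had 0.573 and 1.3 CPM in M2, 6.38 and 5.62 in M1, 14 and 19.9 in EM3, 10.8 and 12.5 in EM2, 19 and 21.8 in EM1, 15.8 and 22.3 in E, against 22.5 and 26.8 in Parental. M2 was lowest, M1 next, and neither overlapped another group. M2 changed by -4.63 ± 0.36 (adjusted p = 2.2e-07), M1 by -2.04 ± 0.29 (adjusted p = 7.5e-05) and EM2 by -1.08 ± 0.27 (adjusted p = 0.026), though EM2 did not pass without any one of its own or the Parental libraries (-0.97 to -1.2). Region 5 (chromosome 7, 55034387 to 55034638) had 0.802 and 0.611 CPM in M2, 0.638 and 0.528 in M1, 2.84 and 5.44 in EM3, 1.93 and 2.26 in EM2, 4.72 and 5.65 in EM1, 4.85 and 5.93 in E, against 6.35 and 7.47 in Parental. All 4 M libraries lay under 1 CPM and all libraries of the other groups above 1.9. M2 changed by -3.29 ± 0.44 (adjusted p = 2.4e-05), M1 by -3.56 ± 0.44 (adjusted p = 2.8e-05) and EM2 by -1.72 ± 0.38 (adjusted p = 0.013), the last lost without any one EM2 or Parental library.

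EGFR region 17, 121.7 kb past the start (chromosome 7, 55140304 to 55141039), had the largest rise of the interval in both M clones. It had 19.8 and 19.6 CPM in M2, 19.2 and 17.4 in M1, 4.57 and 3.22 in EM3, 8.56 and 4.29 in EM2, 2.14 and 2.93 in EM1, 8.01 and 5.93 in E, against 2.63 and 2.97 in Parental. The M libraries all lay above the libraries of the other groups, and EM2 and E came next. The changes were 2.81 ± 0.35 (adjusted p = 1.3e-05) in M2, 2.70 ± 0.35 (adjusted p = 3.5e-05) in M1, 1.19 ± 0.35 (adjusted p = 0.048) in EM2 and 1.31 ± 0.35 (adjusted p = 0.031) in E. The EM2 call was lost in most alternatives. The E call was lost without E replicate 1 (1.08), without either Parental library and with only the 4 libraries compared.

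EGFR regions 6 and 20 differed between the M clones. Region 6 (chromosome 7, 55048207 to 55048457) had 11.2 and 12.9 CPM in M2, 1.91 and 1.19 in M1, 1.1 and 1.51 in EM3, 2.08 and 1.4 in EM2, 1.51 and 2.02 in EM1, 3.88 and 5.71 in E, against 2.9 and 2.21 in Parental. Only the M2 libraries exceeded 6 CPM. M2 was higher than Parental by 2.24 ± 0.38 (adjusted p = 0.00018) on the log2 scale and higher than M1 by 2.99 ± 0.40 (adjusted p = 4.6e-05). Region 20, 173.9 kb past the start (chromosome 7, 55192465 to 55193284), had 0.916 and 1.45 CPM in M2, 17.5 and 27.4 in M1, 2.84 and 4.94 in EM3, 10.2 and 10.3 in EM2, 2.23 and 4.04 in EM1, 2.55 and 3.62 in E, against 3.63 and 5.94 in Parental. M1 was highest with EM2 next, and M2 was lowest. The change from Parental was -1.97 ± 0.46 (adjusted p = 0.0019) in M2 and 2.23 ± 0.39 (adjusted p = 0.00042) in M1, and that of M2 from M1 was -4.20 ± 0.45 (adjusted p = 7.6e-06).

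The remaining calls of M2 and M1 against Parental in the EGFR interval were as follows. In M2, regions 2, 14, 18 and 19 were lower, at -1.60, -2.45, -2.85 and -1.38, and regions 9, 10 and 16 were higher by 1.04, 0.66 and 0.80. Of these, region 9 was not called without M2 replicate 2 (0.55, adjusted p = 0.13) nor region 16 without Parental replicate 1 (0.47, adjusted p = 0.053), and region 10 was not called with library totals or without any one M2, M1 or Parental library. Regions 18 and 19 also lie over EGFR-AS1, the antisense RNA gene of EGFR. In M1, regions 4, 11 and 16 were higher by 2.26, 0.69 and 0.90, and region 15 was lower, at -0.74. The call of region 15 was lost without M1 replicate 1 (-0.49, adjusted p = 0.16), without Parental replicate 2 (-0.6, adjusted p = 0.11) and with the 10 Mb window median removed (-0.62, adjusted p = 0.08). EGFR regions 1 and 13 had the largest p among the groups of the regions with above-median signal (adjusted p = 0.38 and 0.59). Region 1, 33.3 kb before the gene, had 35.8 and 54.3 CPM in M2, 43.5 and 54.8 in M1, 31.4 and 38.4 in EM3, 25.7 and 41.9 in EM2, 31.7 and 38.6 in EM1, 29.7 and 46.5 in E, against 41.7 and 40.5 in Parental. Replicate 2 exceeded replicate 1 there in all groups but Parental, and with a replicate block the groups differed (adjusted p = 0.04). Region 13 had 12.7 and 11 CPM in M2, 11.2 and 7.99 in M1, 10 and 8.06 in EM3, 13.7 and 10.4 in EM2, 8.46 and 10.6 in EM1, 7.16 and 11.2 in E, against 11.2 and 11.5 in Parental. At both regions, libraries of the same group differed by as much as most of the groups did.

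**Figure D3:**
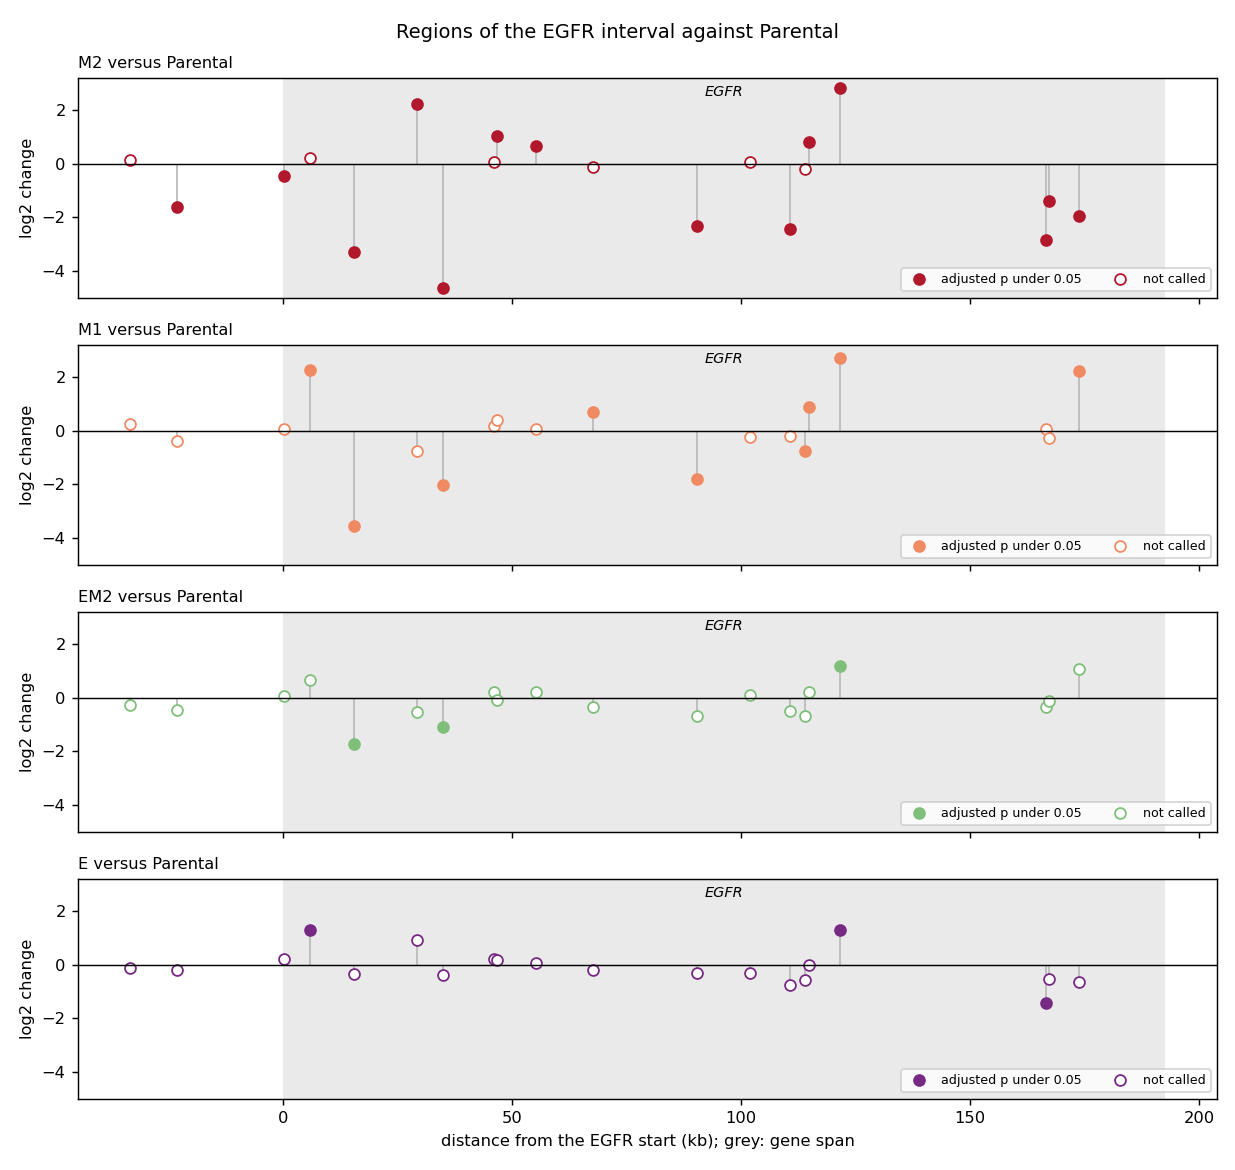
log2 change (vertical axis) of each region of the EGFR interval against its distance from the EGFR start in kb (horizontal axis), for M2, M1, EM2 and E against the same Parental libraries. Filled points have an adjusted p under 0.05 and the grey band is the gene. Falls at 15.5, 34.9 and 90.5 kb and a rise at 121.7 kb appear in the M2 and M1 panels, and region 20 at 173.9 kb is lower in M2 and higher in M1.

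At the ligand cluster the 4 gene starts behaved differently from one another. The start of EPGN (ligand region 2, chromosome 4, 74308129 to 74308588, within LOC105377276) had 0 and 0 CPM in M2, 8.08 and 5.55 in M1, 11.1 and 18 in EM3, 10.4 and 15.2 in EM2, 11 and 16.6 in EM1, 7.76 and 13.9 in E, against 14.8 and 17.3 in Parental. M2 had 0 counts in both libraries, against 367 counts in the Parental libraries, which is at least 117-fold lower if 3 counts are taken as the floor for the pair of M2 libraries (edgeR adjusted p = 9.3e-07). M1 lay between M2 and Parental and changed by -1.25 ± 0.37 (adjusted p = 0.016), a call lost without M1 replicate 2 (-0.99, adjusted p = 0.12) or Parental replicate 2 (-1.12, adjusted p = 0.079). The libraries of EM3, EM2, EM1 and E overlapped those of Parental or lay below them, with E replicate 1 under M1 replicate 1, and none of these groups passed. Ligand region 3, 12.3 kb past the EPGN start (chromosome 4, 74320505 to 74321102), had 9.96 and 10.1 CPM in M2, 11.8 and 12.2 in M1, 26.3 and 32.8 in EM3, 29.4 and 32.1 in EM2, 29.2 and 29.1 in EM1, 22.3 and 27.2 in E, against 36.7 and 35.4 in Parental. The M libraries lay at 9.96 to 12.2 CPM and every other library above 22. The changes were -1.84 ± 0.18 (adjusted p = 1.4e-06) in M2 and -1.58 ± 0.17 (adjusted p = 9.8e-06) in M1, and -1.04 ± 0.17 (adjusted p = 0.00033) in M1 against E.

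The start of EREG (ligand region 4, chromosome 4, 74364614 to 74365507) went the other way. It had 59.4 and 60.5 CPM in M2, 46.5 and 45.7 in M1, 24.4 and 20.7 in EM3, 50.6 and 47.5 in EM2, 22.2 and 19.4 in EM1, 23.3 and 22 in E, against 23.2 and 27.4 in Parental. M2, M1 and EM2 lay at 45.7 to 60.5 CPM, apart from the 19.4 to 27.4 CPM of the remaining groups. The changes were 1.24 ± 0.15 (adjusted p = 9.5e-06) in M2, 0.86 ± 0.15 (adjusted p = 0.00036) in M1 and 0.95 ± 0.15 (adjusted p = 0.0016) in EM2, all of which share the Parental libraries. M1 was also higher than E, by 1.03 ± 0.15 (adjusted p = 0.00012). EM3, EM1 and E changed by -0.16, -0.29 and -0.16, and whether EM2 differed from EM3 and EM1 was not tested. M2 exceeded M1 by 0.38 ± 0.14 (adjusted p = 0.038) in the fit over all libraries, which was not past the threshold with library totals (0.23, adjusted p = 0.18) or without any one M2 or M1 library. Ligand region 5, inside EREG 9.6 kb past the start, was higher in M2 by 0.80 ± 0.20 (adjusted p = 0.0035), a call lost without M2 replicate 2, and its changes in M1 and EM2 were 0.35 and 0.16.

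The starts of AREG and BTC were open in every group. The start of AREG (ligand region 14, chromosome 4, 74444813 to 74445626) had 23.1 and 32.4 CPM in M2, 35.2 and 31.8 in M1, 28.2 and 29.5 in EM3, 44.9 and 39 in EM2, 27.7 and 32.8 in EM1, 27.8 and 30.2 in E, against 34.5 and 34.4 in Parental. EM2 was highest and overlapped no other group. Of the other clones only M1 overlapped Parental, and all libraries of M2, EM3, EM1 and E lay below both Parental libraries. The difference among the 7 groups had an adjusted p of 0.06 and no comparison with Parental passed, with an M2 change of -0.30 ± 0.17 (adjusted p = 0.14) and an EM2 change of 0.28 ± 0.17 (adjusted p = 0.37). The difference among the groups passed with library totals in place of TMM (adjusted p = 0.026), with DESeq2 (adjusted p = 0.045), with a replicate block (adjusted p = 0.031) and without M2 replicate 1 (adjusted p = 0.047) or M2 replicate 2 (adjusted p = 0.016). The M2 change was -0.42 (adjusted p = 0.041) with library totals and -0.58 (adjusted p = 0.018) without M2 replicate 2. The start of BTC (ligand region 37, chromosome 4, 74793870 to 74794824) had 25.5 and 29.9 CPM in M2, 37.4 and 27.7 in M1, 32.7 and 30.4 in EM3, 38.6 and 30.6 in EM2, 33.6 and 32.5 in EM1, 31.2 and 35.4 in E, against 42 and 35.4 in Parental. The test among the 7 groups did not pass there (adjusted p = 0.37), so the comparisons with Parental that follow are weak evidence of a difference. Only M2 was called, at -0.48 ± 0.18 (adjusted p = 0.034), and not with the 10 Mb window median removed (-0.28, adjusted p = 0.2), without M2 replicate 1 (-0.37, adjusted p = 0.17) or without Parental replicate 1 (-0.35, adjusted p = 0.2).

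Of the 38 ligand regions, 8 were higher and 14 lower in M2 than in Parental, and 5 were higher and 10 lower in M1. Over all regions 32.2% were higher and 34.9% lower in M2, and 19% and 23.4% in M1. The M2 split was 6 higher and 16 lower with library totals, and 11 and 13 with the 10 Mb window median removed. The M1 count of 15 was 9 without M1 replicate 1, 9 without M1 replicate 2 and 8 without Parental replicate 2. The median change was -0.08 in M2, also with the EPGN start at its bound, and -0.01 in M1. In the ligand interval 21 regions lie between AREG and BTC and 8 between EREG and AREG, so most members are not at a gene.

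Ligand regions 17, 27 and 31, between AREG and BTC, were nearly closed in both M clones. Ligand region 17, 35.3 kb past the AREG start (chromosome 4, 74480312 to 74480579), had 0.115 and 0 CPM in M2, 0.213 and 0.132 in M1, 4.05 and 6.04 in EM3, 2.77 and 3.9 in EM2, 6.59 and 6.76 in EM1, 6.31 and 4.28 in E, against 11.7 and 10.7 in Parental. M2 held 1 count in both libraries together, against 255 counts in Parental, a ratio of Parental to M2 of 244 (exact binomial 95% interval 43.4 to 9670). M1 changed by -6.00 ± 0.53 (adjusted p = 2.1e-06) and EM2 by -1.74 ± 0.36 (adjusted p = 0.0096). EM2, EM3, EM1 and E lay between the M clones and Parental, with no overlap with either. The EM2 call was lost without EM2 replicate 1 (-1.52, adjusted p = 0.1) and without either Parental library. Ligand region 31 (chromosome 4, 74635585 to 74635813) had 0.229 and 0.382 CPM in M2, 0 and 0.264 in M1, 3.71 and 6.55 in EM3, 2.39 and 3.04 in EM2, 6.68 and 9.41 in EM1, 3.4 and 4.39 in E, against 9.07 and 10.5 in Parental. The order of the groups was similar, with M2 at -4.90 ± 0.57 (adjusted p = 7.9e-06), M1 at -5.85 ± 0.62 (adjusted p = 7.8e-06) and EM2 at -1.85 ± 0.43 (adjusted p = 0.017). The EM2 call did not hold without any one EM2 or Parental library (-1.69 to -2.03). Ligand region 27 was lower, at -4.64 in M2 and -3.01 in M1.

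Ligand region 20, 58.7 kb past the AREG start (chromosome 4, 74503666 to 74503956), opened in both M clones. It had 15 and 21.3 CPM in M2, 13.9 and 24.5 in M1, 2.55 and 3.32 in EM3, 2.85 and 3.58 in EM2, 2.4 and 2.79 in EM1, 3.76 and 2.31 in E, against 1.54 and 2.55 in Parental. The 4 M libraries lay at 13.9 CPM or more and all others below 4. M2 changed by 3.14 ± 0.39 (adjusted p = 1.3e-05), M1 by 3.23 ± 0.39 (adjusted p = 2.2e-05), and M1 against E by 2.67 ± 0.38 (adjusted p = 0.0001). Nearby, ligand region 18 was higher by 3.70 in M1 and 1.77 in M2, the M2 call being lost without M2 replicate 1 or either Parental library.

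Ligand region 23, 99.2 kb past the AREG start (chromosome 4, 74544049 to 74544540), was most open in M2. It had 18.9 and 38.1 CPM in M2, 0.532 and 0.991 in M1, 0.521 and 0.705 in EM3, 0.617 and 0.468 in EM2, 0.445 and 0.906 in EM1, 4.97 and 1.1 in E, against 1.27 and 1.02 in Parental. M2 lay far above all other groups. E replicate 1 was the next highest library, above E replicate 2 and above both Parental libraries. M2 exceeded Parental by 4.63 ± 0.61 (adjusted p = 2.1e-05) and M1 by 5.15 ± 0.63 (adjusted p = 2.1e-05). The change of M1 from E was -1.90 ± 0.65 (adjusted p = 0.031), and -0.46 (adjusted p = 0.65) without E replicate 1.

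Just past the end of AREG lies the widest region of both intervals (ligand region 15, chromosome 4, 74455281 to 74456710, 276 bp after the gene). This region is outside the naming rule and was chosen after its values were seen. It had 4.81 and 2.52 CPM in M2, 123 and 35.9 in M1, 73.8 and 19.8 in EM3, 134 and 92 in EM2, 171 and 37.2 in EM1, 4.61 and 11.3 in E, against 170 and 104 in Parental. M2 and E were low in both libraries, while the replicates of M1, EM3 and EM1 differed by more than 3-fold. The changes were -5.27 ± 0.92 (adjusted p = 0.00022) in M2 and -4.09 ± 0.85 (adjusted p = 0.01) in E, the E call being lost without E replicate 1 (-3.6, adjusted p = 0.075) or Parental replicate 1 (-3.69, adjusted p = 0.055). Replicate 1 exceeded replicate 2 in every group except E, and the part of this spread in the result was not tested.

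Of the ligand regions with above-median signal, regions 24 and 32 showed the weakest evidence of a difference among the groups (adjusted p = 1 and 0.8). Region 24 had 10.4 and 20.6 CPM in M2, 15.1 and 16.8 in M1, 10.7 and 18 in EM3, 11.2 and 17.1 in EM2, 8.55 and 21.8 in EM1, 8.49 and 20.6 in E, against 14 and 14.7 in Parental. Region 32 had 11.3 and 14.5 CPM in M2, 11.9 and 10.4 in M1, 12.7 and 13.2 in EM3, 15.2 and 13.9 in EM2, 11.5 and 16.3 in EM1, 11.6 and 15.2 in E, against 12.9 and 13.9 in Parental. At region 24 replicate 2 exceeded replicate 1 in every group, and at region 32 all libraries lay between 10.4 and 16.3 CPM.

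**Figure D4:**
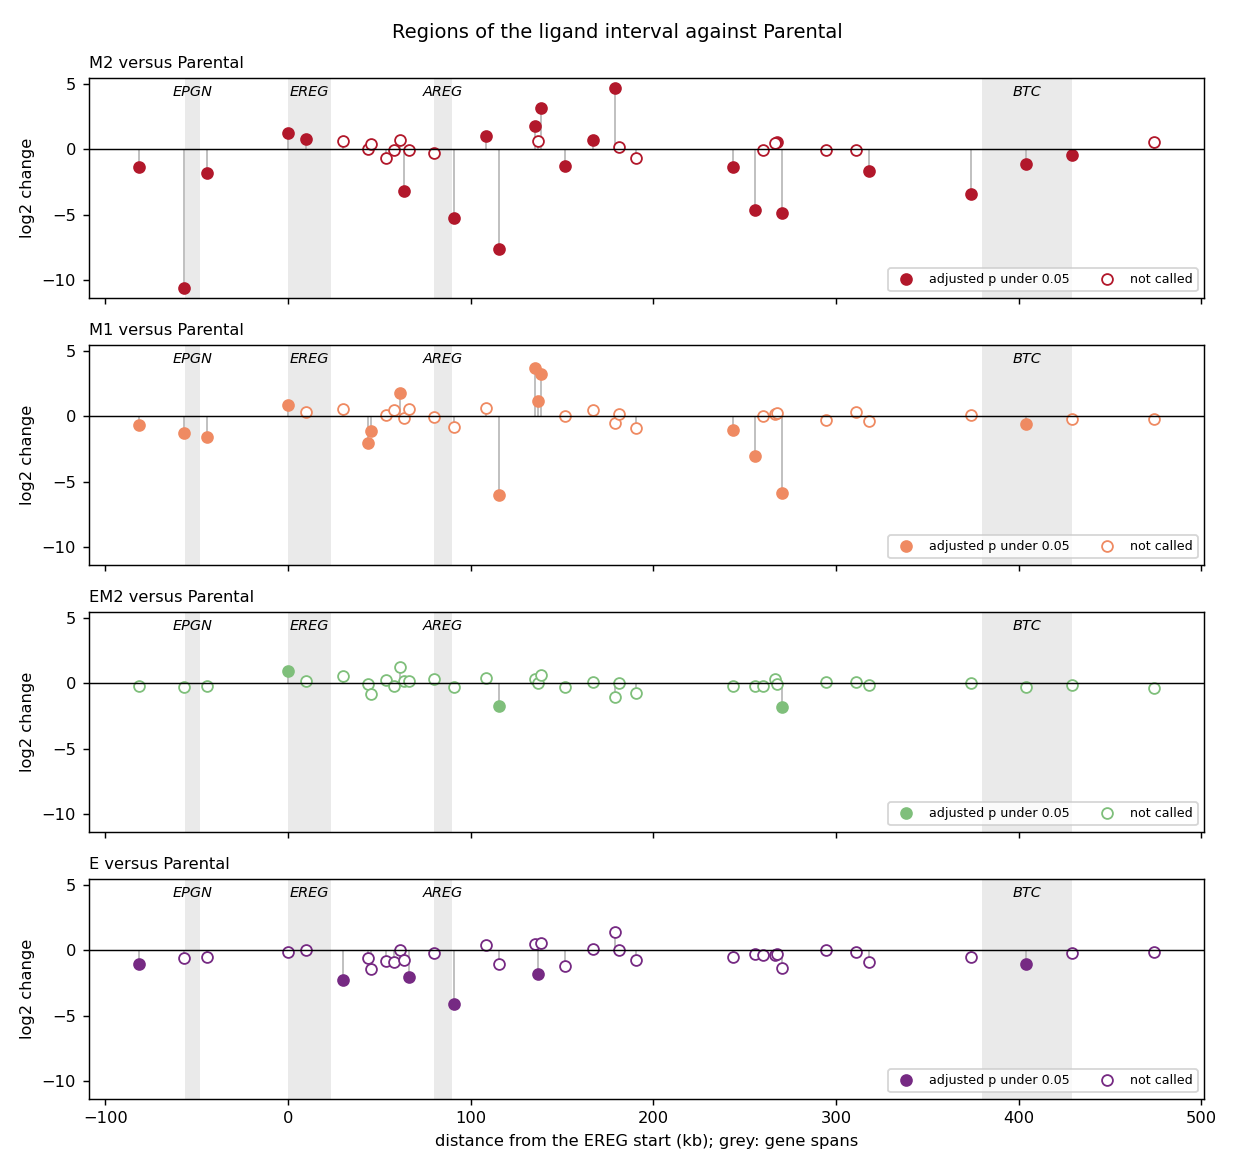
log2 change (vertical axis) of each region of the ligand interval against its distance from the EREG start in kb (horizontal axis), for M2, M1, EM2 and E against the same Parental libraries. Filled points have an adjusted p under 0.05, and grey bands are EPGN, EREG, AREG and BTC. The EPGN start has no M2 counts, so its M2 point is a fitted value that depends on the prior count, and the E panel has called points only below 0.

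Few members were called in the EM clones against Parental, which with 2 libraries per group does not show that the other members were alike. At an unadjusted edgeR p under 0.05 there were 8 EGFR regions in EM3, and 7 EGFR and 4 ligand regions in EM2. In EM3, 2 EGFR regions were lower, region 3 and region 11 (-0.76 ± 0.16 (adjusted p = 0.027)), beside 3.11% of all regions called. No ligand region of EM3 was called by edgeR, with 4 at an unadjusted p under 0.05 and 0 called by DESeq2. Without any one EM3 or Parental library no EGFR region was called in EM3, without EM1 replicate 1 there was 1, and with only the EM3 and Parental libraries fitted there were 5. In EM2, 1 EGFR region was higher and 2 lower, and 1 ligand region was higher and 2 lower, beside 9.19% of all regions (3.02% higher and 6.17% lower). These are EGFR regions 17, 5 and 7 and ligand regions 4, 17 and 31, all described above. Without EM2 replicate 1, Parental replicate 1 or Parental replicate 2, no EGFR region and 1 ligand region remained called in EM2. In EM1 edgeR called no member, beside 0.628% of all regions, with 6 EGFR regions and 0 ligand regions at an unadjusted p under 0.05 and 2 EGFR regions called by DESeq2. Of the 20 EGFR regions 19 had a negative change in EM1 and 17 in EM3, with medians of -0.42 and -0.46. In the 54 regions of the flanking 1 Mb the medians were -0.2 and -0.36, so a shift of the same sign extended beyond the gene.

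In clone E, 15.8% of the ligand regions and 15% of the EGFR regions were called against Parental, beside 11.6% of all regions. The 6 ligand regions called were all lower, beside 5.26% of all regions higher and 6.31% lower. These shares were not tested against those of the whole table. Ligand region 6, 29.8 kb past the EREG start, had 17.8 and 12.2 CPM in M2, 16.5 and 12.3 in M1, 9.32 and 5.54 in EM3, 18.6 and 10.1 in EM2, 11.8 and 7.88 in EM1, 1.82 and 2.09 in E, against 9.97 and 9.25 in Parental. Ligand region 13, 13.8 kb before AREG, had 7.33 and 7.26 CPM in M2, 12.4 and 10.2 in M1, 5.33 and 3.53 in EM3, 8.94 and 8.73 in EM2, 6.5 and 6.13 in EM1, 1.33 and 2.31 in E, against 6.71 and 8.82 in Parental. At both, the E libraries lay below all others. The changes in E were -2.29 ± 0.42 (adjusted p = 0.0052) at region 6 and -2.08 ± 0.34 (adjusted p = 0.0031) at region 13, and both stayed called without E replicate 1 (-2.2 and -1.75, adjusted p = 0.039 and 0.025). Regions 1, 15, 19 and 36 changed by -1.07, -4.09, -1.79 and -1.07 and were not called without that library. In the EGFR interval E had 2 regions higher (4 and 17) and 1 lower (18, at -1.44 ± 0.36 (adjusted p = 0.023)), against 1 higher and 2 lower with DESeq2 size factors or the window median removed. The calls of regions 4 and 18 were lost without E replicate 2, without either Parental library and with only the 4 libraries compared. That of region 4 was also lost without E replicate 1, with DESeq2 size factors, with the window median removed and without several single libraries of other clones. Without E replicate 1 the calls of E were 1 in the EGFR interval and 2 in the ligand interval, without Parental replicate 1 none of the EGFR regions was called, and without Parental replicate 2 the counts were 0 and 3. The 10 Mb window around the ligands was itself lower in E than in Parental, by a median of -0.36 on the log2 scale, and with it removed 3 ligand regions were called. The ligand members had a median change of -0.52 in E and the 65 flanking regions one of -0.16, and the part of a regional shift in these calls was not tested further.

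The M clones differed from each other at 44.8% of the 58 members, a smaller share than that of all regions. The shares were not tested against each other. In M2 against M1, 1 EGFR region was higher and 9 were lower, and 4 ligand regions were higher and 12 lower, beside 56.3% of all regions (27.2% higher and 29.1% lower). The ligand split was 2 higher and 14 lower with library totals, and 7 and 7 with the window median removed. The ligand count of 16 came to 10 without M2 replicate 2, 9 without M1 replicate 1 and 9 without M1 replicate 2. Regions lower in M2 than in M1 included EGFR regions 14 and 18 (-2.27 and -2.90) and ligand regions 12 and 35 (-2.99 and -3.53). Ligand region 12, 16.6 kb before AREG, had 2.52 and 2.75 CPM in M2, 25.4 and 17.1 in M1, 17.1 and 15.9 in EM3, 25.4 and 27.1 in EM2, 18.5 and 19.9 in EM1, 7.4 and 20.6 in E, against 24.9 and 22.7 in Parental. It was low in M2 alone, with E replicate 1 the next lowest library.

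M1 was also set against E, which uses no Parental library. In the EGFR interval 6 regions were higher and 4 lower in M1, and in the ligand interval 11 were higher and 5 lower, beside 43.8% of all regions (19.6% higher and 24.2% lower). With the window median removed the ligand split was 8 higher and 8 lower. Without E replicate 1 there were 9 and 11 calls in place of 10 and 16. EGFR regions 5, 7 and 12 and ligand regions 3, 17, 27 and 31 were lower in M1 than in E, at -3.21, -1.67, -1.48, -1.04, -4.92, -2.74 and -4.53 on the log2 scale, and EGFR region 17 and ligand regions 4 and 20 were higher, by 1.40, 1.03 and 2.67. These calls held without E replicate 1.

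Summed over its 20 regions, the EGFR interval had 487.2 and 531.2 CPM in M2, 546.5 and 614.7 in M1, 406.6 and 438.1 in EM3, 500.1 and 518.4 in EM2, 446.6 and 418.7 in EM1, 485.4 and 535.5 in E, and 550.2 and 639.7 in Parental. EM3 and EM1 were lowest, at 422.3 ± 22 and 432.6 ± 20 CPM (SD, n = 2 each), and Parental was highest at 594.9 ± 63, with M1 at 580.6 ± 48 inside its spread. In order of the means, EM3 and EM1 overlapped, M2, EM2 and E overlapped, and M1 and Parental overlapped. The 38 ligand regions summed to 446.8 and 542.2 CPM in M2, 675.9 and 555.9 in M1, 526 and 528.4 in EM3, 659.1 and 657.1 in EM2, 621.8 and 592.1 in EM1, 335.9 and 450.7 in E, and 676.7 and 663.1 in Parental. E was lowest, at 393.3 ± 81 CPM against 669.9 ± 9.6 in Parental, and its upper library overlapped the lower library of M2. Relative to Parental the sums were 0.856 (EGFR) and 0.738 (ligands) in M2 and 0.976 and 0.919 in M1, although single regions inside them differed by several log2 units. Ligand region 15 alone averaged 137 CPM in Parental, 3.67 in M2, 79.7 in M1, 46.8 in EM3, 113 in EM2, 104 in EM1 and 7.96 in E. A large part of the gap between Parental and M2 or E in the ligand sum thus lay in that region, whose replicates varied widely. It is not a measure of a loss across the interval. The sums are descriptions without a test. The 10 Mb windows around EGFR differed from Parental by -0.16 (EM3) to 0.13 (E) on the log2 scale, and those around the ligands by -0.36 (E) to 0.03 (M1).

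**Figure D5:**
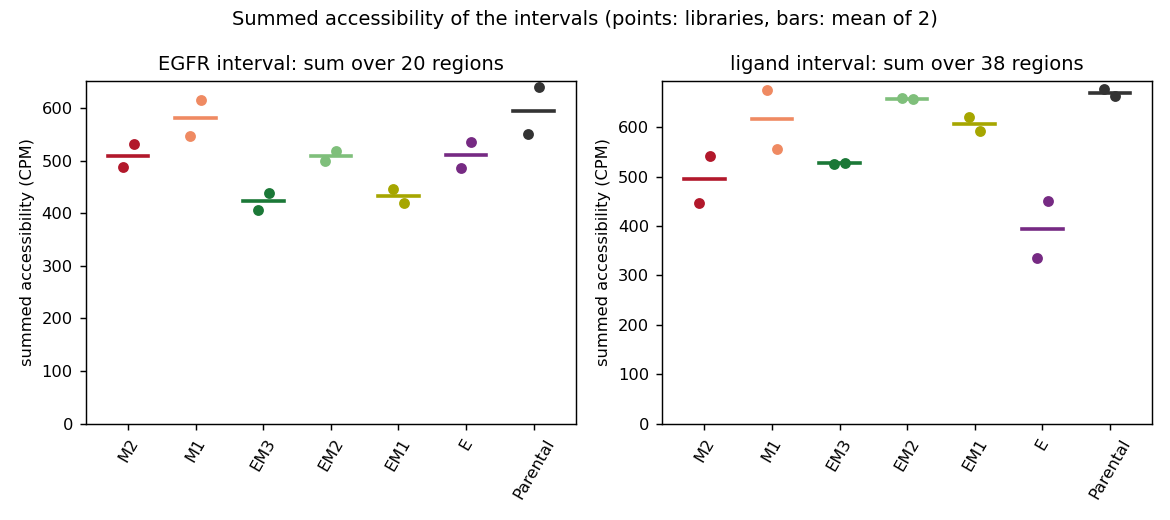
Summed CPM over the 20 regions of the EGFR interval (left) and the 38 regions of the ligand interval (right) in each library (points), with the mean of 2 libraries (bars), groups from M2 to Parental. EM3 and EM1 are lowest at EGFR, and E is lowest at the ligands with 335.9 and 450.7 CPM. Ligand region 15 alone averaged 137 CPM in Parental, 7.96 in E and 3.67 in M2.

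At the edges of the intervals the levels were as follows. The first region outside the EGFR interval, 15.9 kb before its first member, averaged 15.5 CPM in M2, 4.24 in M1, 1.09 to 2.85 in EM3, EM2, EM1 and E, and 0.617 in Parental, while EGFR region 1 just inside averaged 33.8 to 49.2 CPM over the groups. The first region past the far edge, 61.3 kb after EGFR region 20, averaged 34.6 to 50.8 CPM. Outside the ligand interval, the nearest regions averaged 4.26 to 6.13 CPM before it and 3.09 to 5.19 after it, and ligand regions 1 and 38 just inside averaged 9.07 to 23.8 and 5.23 to 9.82 CPM.

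Across the 14 libraries, which share depth and group structure, some members moved together. The log2 CPM of EGFR region 7 correlated at 0.90 with EGFR region 12 and at 0.89 with ligand region 17 on the other chromosome. Ligand regions 17 and 31 correlated at 0.95, and EGFR region 17 and ligand region 20 at 0.89. The starts of EGFR and EREG correlated at 0.23. Outside the intervals, the regions within 10 kb of a gene end that were most like the EGFR start lay at MYBBP1A (0.968), FXR2 (0.962), TAX1BP3 (0.956) and SPDYE4 (0.949) on chromosome 17 and at VOPP1 (0.949) on chromosome 7. Those most like ligand region 17 lay near CA2 (0.992), PRSS12 (0.99), MT1B (0.989), DMBX1 (0.989) and CHMP1A (0.989). These are descriptions over 14 libraries of 7 groups.

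The other genes of the pathway were counted over 51 genes, of which 49 had a region with its nearest gene end within 50 kb, 202 regions in all. In M2, 83 of these regions were higher and 55 lower (41.1% and 27.2%, beside 32.2% and 34.9% of all regions). In M1, 43 were higher and 45 lower (21.3% and 22.3%), beside 19% and 23.4% of all regions. In E there were 13 and 17 (6.44% and 8.42%, beside 5.26% and 6.31%), in EM2 6 and 9 (2.97% and 4.46%, beside 3.02% and 6.17%), in EM3 2 and 3 (0.99% and 1.49%, beside 1.85% and 1.26%), and in EM1 none by edgeR, beside 0.628% in either direction. The counts of single groups of genes that follow stand beside the same shares, 32.2% higher and 34.9% lower in M2 and 19% and 23.4% in M1, and were not tested against them. Among the other ERBB receptors, partners of EGFR, 1 of 6 regions was higher and 2 lower in M2, and 0 higher and 4 lower in M1. A region 17691 bp from an end of ERBB2, a receptor without a ligand of its own (chromosome 17, 39705785 to 39706359), had 0.229 and 0.382 CPM in M2 and 1.59 and 0.859 in M1, against 21.8 and 18.6 in Parental (log2 changes -5.94 and -4.09, adjusted p = 1e-07 and 1.2e-06). The region at an end of ERBB2 itself went the other way in M2, averaging 30.8 CPM against 9.27 in Parental (log2 change 1.73, adjusted p = 3.6e-05). Its change in M1 was 0.5 (adjusted p = 0.11). A region 32708 bp from an end of ERBB4 changed by -3.85 in M1. Of 28 regions of the other EGF-family ligands, 9 were higher and 14 lower in M2 and 6 and 7 in M1. Of 11 regions at the ligand-shedding proteases and their regulators, 4 were higher and 3 lower in M2 and 1 and 2 in M1.

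Further down the pathway, 18 of 35 regions of adaptors and signal carriers were higher in M2 and 8 lower (51.4% and 22.9%, beside 32.2% and 34.9% of all regions), and 4 and 7 in M1 (11.4% and 20%, beside 19% and 23.4%). A region 9388 bp from an end of GAB1, a docking protein of receptor tyrosine kinases, had 0.802 and 0.229 CPM in M2 and 0.744 and 0.661 in M1, against 20.3 and 26.5 in Parental (log2 changes -5.61 and -5.05). The region at an end of GAB1 itself was higher in M2, averaging 74.8 CPM against 52.1 in Parental (log2 change 0.52, adjusted p = 0.014). Among genes of receptor feedback and turnover, 21 of 52 regions were higher and 11 lower in M2 (40.4% and 21.2%), and 7 and 14 in M1 (13.5% and 26.9%). A region 37280 bp from an end of CBLB, a ubiquitin ligase that acts on activated receptors, had 33.6 and 42.8 CPM in M2 and 27.4 and 17.2 in M1, against 3.63 and 2.38 in Parental (3.67 and 2.89). The region at an end of CBLB itself averaged 136 CPM in M2 and 89.1 in M1, against 129 in Parental. Its log2 change was 0.08 in M2 (edgeR adjusted p = 0.63) and -0.54 in M1 (adjusted p = 0.0056). Among ERK feedback genes and targets, 30 of 70 regions were higher and 17 lower in M2 (42.9% and 24.3%), and 25 and 11 in M1 (35.7% and 15.7%). At ETV5, an ETS factor downstream of ERK, regions moved both ways in M2: one 24282 bp from an end of the gene had 39.2 and 38.9 CPM in M2, against 0.816 and 0.933 in Parental (5.46), and one 10632 bp away had 0.115 and 0.841 CPM, against 34 and 29.6 (-5.86). In M1, the region near ETV5 that was higher changed by 4.52, and a region 46384 bp from an end of SPRED1, an inhibitor of RAS-ERK signalling, by 3.64. All regions named here at a stated distance in bp from a gene end passed edgeR's test at an adjusted p of 2.8e-05 or less. Regions were given to the gene with the nearest end, which need not be the gene they act on.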

How the data were processed

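ATAC-seq libraries of 6 clones of SUM149PT and of the parental line, 2 each, were used as a deposited table of raw counts per library in 65774 consensus regions. Per the submitters' processing notes, the build was hg38 and the tools were MACS2 2.1.1, deepTools, Bowtie2 2.2.6, featureCounts, Picard, bcl2fastq 2.20.0.422 and cutadapt 1.9.1, with no role stated for any. How regions were merged, and whether insertion sites were shifted or duplicates removed, is not stated there. The per-clone peak lists were not used here.

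From the counts, TMM-scaled CPM and quasi-likelihood F tests of edgeR 4.0.16 in R 4.3.3 were computed with 7 group means over all 14 libraries. The filterByExpr filter (minimum count 10) removed 3 regions. A region was called at a Benjamini-Hochberg adjusted p under 0.05 over 65771 regions. The common biological coefficient of variation was 0.208, and the prior count of log2 values was 2. The fits were also tested on simulated data. For a group without counts the fold is a bound at 3 counts in its libraries together, and ratios with 1 to 3 counts have exact binomial 95% intervals. Start regions overlap a RefSeq start or lie within 1 kb of it. Windows of 10 Mb held at least 20 regions.

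Library values are printed for the start regions, the 6 regions of smallest and the 2 of largest p among the 7 groups in each interval (those of largest p out of regions of above-median signal), and for a few further regions chosen after their values were seen: ligand regions 6, 12, 13 and 15. Of the other pathway genes, the 3 called regions of smallest p in each direction are named for M2 and for M1 against Parental. The regions, gene lists and this rule were chosen with earlier results of these data known. Alternatives were library totals, DESeq2 size factors, no filter, DESeq2 1.42.0, a replicate block, removal of the 10 Mb window median, a log2 limit of 1, only the 4 libraries compared, and leaving out single libraries or both M2 libraries. Leaving out M2 and E replicate 1 together was added after the data were seen. Library depth was 8138944 to 16786823 counts. Promoter sequences are from RefSeq (GRCh38.p14), and all 5 genes matched.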

Additional observations from a re-analysis of the deposited data

How the results depend on the processing

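Calls of the M clones moved least. No value that had been called changed sign under any alternative. The counts of regions called in M2 against Parental and among the 7 groups stayed within 1.5 times the reported ones in all settings, and without single libraries those of M2 ranged from 11 to 14 (EGFR) and 18 to 23 (ligands). In M1 against Parental the ligand count ranged from 8 to 15 and in M2 against M1 from 9 to 16 without single libraries. Counts of the other clones depended on the setting. In EM3 the EGFR count was 1 with library totals, 5 with a replicate block, 0 with the 10 Mb window median removed, 0 with a log2 limit of 1, 5 with only the 4 libraries compared and 4 with DESeq2, and 0 to 3 without single libraries. The EM3 ligand count was 3 with the block, 1 with only the 4 libraries and 1 without M2 and E replicate 1, and over all regions EM3 had 5482, 5469 and 3096 calls in these settings, 3643 with DESeq2 and 108 to 3189 without single libraries. In EM2 the block gave 6 EGFR, 5 ligand and 10811 calls over all regions, DESeq2 gave 5 EGFR calls, and leaving out single libraries gave 0 to 4, 1 to 4 and 2173 to 7478, with 7501 calls over all regions without M2 and E replicate 1. In EM1 the EGFR count was 3 with the block, 2 with only the 4 libraries, 2 with DESeq2, 1 without M2 and E replicate 1 and 0 to 1 without single libraries. Over all regions EM1 had 1602, 1132, 1197 and 668 calls in these settings, 261 with the window median removed and 2 to 718 without single libraries. In E the EGFR count was 6 with the block, 0 with only the 4 libraries, 5 with DESeq2, 1 without M2 and E replicate 1 and 0 to 3 without single libraries. The E ligand count was 14 with the block, 3 with the window median removed, 12 with DESeq2, 2 without M2 and E replicate 1 and 2 to 9 without single libraries, and over all regions E had 13106, 4453 (only the 4 libraries), 3321 (without M2 and E replicate 1) and 1235 to 9267 calls. The cause of these differences was not tested beyond the smaller number of libraries in some fits.

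The log2 ratio of the summed EGFR interval to Parental was -0.22 in M2, -0.33 with library totals, -0.11 with the window median removed and -0.33 to -0.11 without single libraries, and in M1 -0.04, 0.08 with the window median removed and -0.14 to 0.08 without single libraries, so the sign of this small M1 value was not settled. For the ligands the M2 ratio was -0.44 and -0.23 with the window median removed. Same-numbered libraries tended to deviate together, with 19 of 21 pairs of groups correlated over 0.1 (0.023 to 0.59 over all pairs). The labels name no shared batch or day and 2 pairs fell short, so the reported fit has no block. A shared replicate effect may be present and is left in the reported counts. The EGFR counts of EM3, EM2, EM1 and E were all higher with a block, as given above, so their reported counts depend on this choice. With a replicate block 19 EGFR and 31 ligand regions differed among the 7 groups. Scaling by library totals in place of TMM shifted the median of all regions by -0.11 on the log2 scale in M2 against Parental and by -0.15 in M2 against M1. Where a library is left out its group has 1, whose spread is taken from the other groups. Regions under about 1 CPM, such as ligand regions 17 and 31 in the M clones, rest on few counts, so their size of change is poorly fixed at this depth. The M1 libraries held 2 and 2 counts at region 17, and the ± values there do not show this uncertainty in full.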
